A study of Homo sapiens with 6 samples.

Results

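The genes described here encode the insulin and insulin-like growth factor (IGF) receptors and the PI3K, AKT and mTOR signalling steps below them. They were chosen by gene symbol from a list of 35 names, all of which were found among the 61806 genes of the deposited table, and the rule itself uses no measured value. RNA was measured in HEK293 cells, an established human line derived from embryonic kidney cells. The mutant group of 3 libraries came from HEK293 cells carrying rs16851030, put in place by CRISPR homology-directed repair, and the wild-type group of 3 libraries came from HEK293 cells labelled wild-type; the labels repeat the editing text for both groups. Both groups were grown in DMEM with fetal bovine serum, which itself holds insulin and growth factors, and no insulin, nutrient or inhibitor treatment is named in the labels. The labels call the libraries biological replicates. They do not say whether the mutant cells are 1 clone, several clones or a pool, how many copies carry the variant, or whether the wild-type cells went through the editing steps, so an effect of the variant and a difference between cell lineages cannot be told apart, and p-values measure the spread between these libraries.

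Insulin and IGFs bind receptor tyrosine kinases, which phosphorylate the IRS adaptors, and these recruit PI3K, an enzyme made of a catalytic and a regulatory subunit. PI3K makes a membrane lipid that brings PDK1 (gene PDPK1) and AKT together. Active AKT keeps FOXO transcription factors out of the nucleus and inhibits the TSC complex, which otherwise holds the small GTPase RHEB inactive. RHEB in turn activates the mTOR kinase complex mTORC1, which phosphorylates S6 kinase, the eIF4E-binding proteins and the autophagy kinase ULK1. Amino acids reach mTORC1 by another route, the Rag GTPases at the lysosome, where folliculin (FLCN) acts on the Rag C and Rag D proteins. Signalling through these steps is set mainly by phosphorylation and location of proteins, which transcript levels do not measure.

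Counts assigned to genes totalled between 16013460 and 20349609 per library. Log2 counts scaled to the library total correlated across genes at r = 0.9931 to 0.9951 within groups and 0.9722 to 0.9791 between groups, where genes are not independent replicates. ADORA1, the adenosine A1 receptor gene whose 3′ untranslated region holds the variant, had 0.573 ± 0.0709 FPKM (fragments per kilobase of exon, scaled to the total count of the library) in mutant libraries and 0.480 ± 0.0964 FPKM in wild-type libraries (SD, n = 3 each), with overlapping values. Of 11 genes fixed as markers of HEK293 cells, 7 had a mean of at least 1 FPKM, and the renal factor PAX8 was listed at 0 in every library. The 11 summed to 146.59 to 150.33 FPKM in mutant libraries and 198.67 to 229.06 FPKM in wild-type libraries. The filament gene VIM, on chromosome 10, made up most of that sum. VIM had 87.4 ± 1.13 FPKM in mutant libraries and 153 ± 11.6 FPKM in wild-type libraries. In the test described below, WT1, CDH2, NEFM and KRT18 also fell, NEFL rose and LHX1 did not pass. PAX2, KRT8 and EPCAM, each with a mean under 1 FPKM, were higher in every mutant library than in any wild-type library. Blood, endothelial and hepatic lists had 0 markers with a mean of at least 1 FPKM, with CD3E, HBB and TTR among those at 0. Of 5 fibroblast markers 1 reached it, and the summed list was 4.97 to 5.32 FPKM in mutant libraries and 2.98 to 3.37 FPKM in wild-type libraries. The endothelial list summed to 0.520 to 0.770 FPKM in mutant libraries and 0.160 to 0.200 FPKM in wild-type libraries, and the blood list to 1.10 to 1.5 FPKM in mutant libraries and 0.600 to 0.890 FPKM in wild-type libraries. In both groups the squamous list had 1 of 3 markers at that level. The part of these marker differences in the results below was not tested.

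The signalling genes were changed in both directions and mostly by small amounts. With edgeR's quasi-likelihood test over all genes with a mean of at least 1 FPKM, 34 of the 35 genes were tested, and 12 rose, 9 fell and 13 did not pass an adjusted p of 0.05 in the mutant libraries. The 21 called genes are 61.8% of those tested, beside 58.0% of all 12550 tested genes. Higher calls made up 29.4% and lower calls 28.7% of all tested genes, so the signalling genes sit near the background in number. Their median log2 fold change (mutant minus wild-type) was 0.02 and their median absolute change 0.21, beside -0.00 and 0.25 over all tested genes. A change of at least 1.5-fold was found among 4 called genes, all of them higher: the receptor gene INSR, the PI3K catalytic gene PIK3CD, the mTOR-binding inhibitor gene DEPTOR and the translation repressor gene EIF4EBP1. The same count over all 12550 tested genes was 1802. The largest fall was that of AKT1S1, the gene of the mTORC1 inhibitor PRAS40. At 1.498-fold lower it lay just under the 1.5-fold cut-off, so that the single direction of the 4 genes depends on that cut-off. Without an expression minimum its log2 change was -0.62. Mutant and wild-type values did not overlap for 23 of the 34 tested genes, beside 62.9% of all tested genes.

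**Figure D1:**
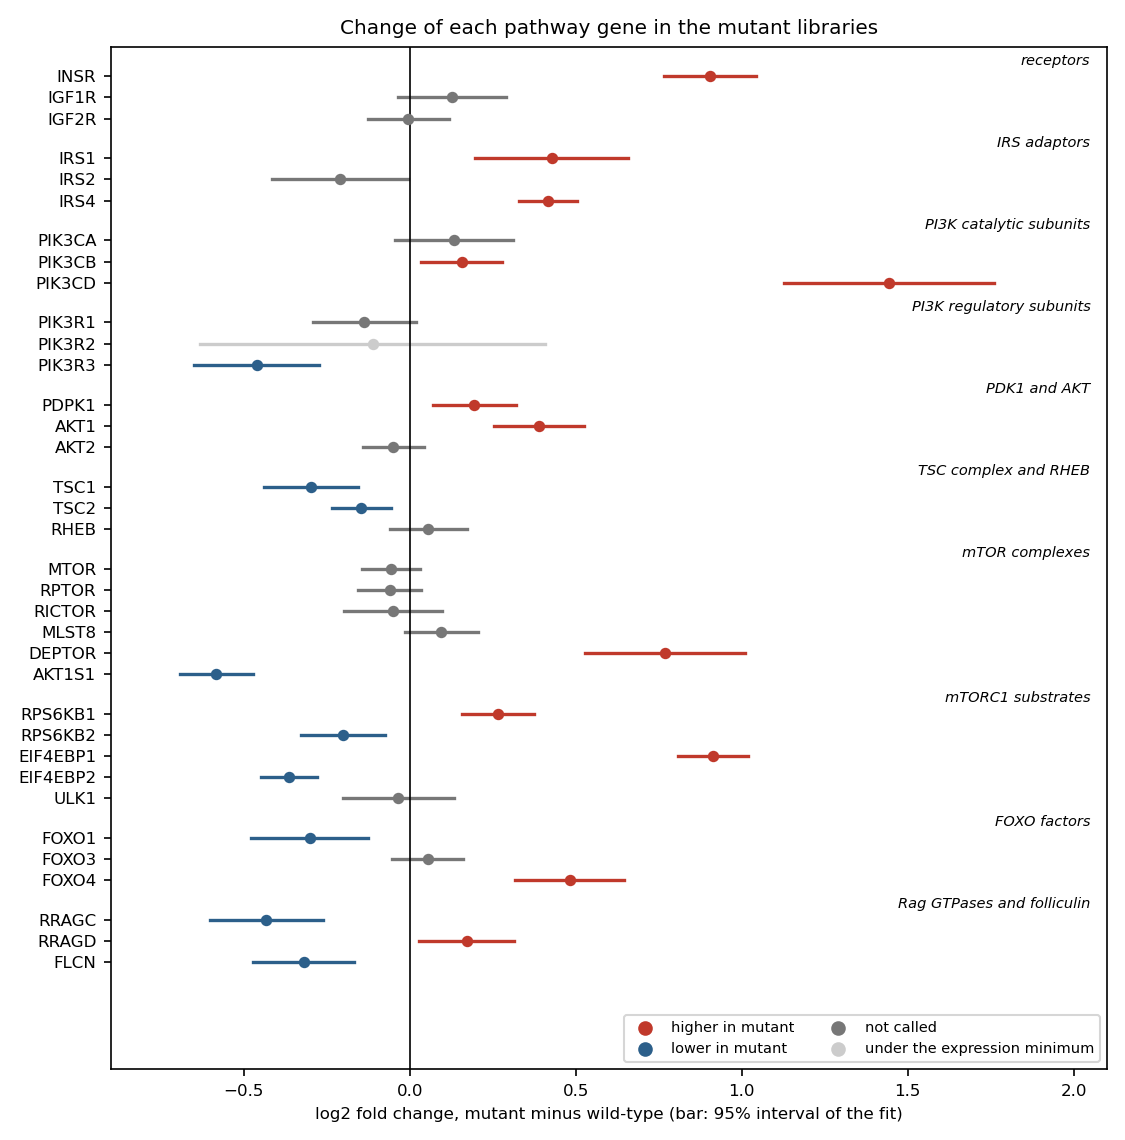
Log2 fold change of each of the 35 genes in mutant minus wild-type libraries (x axis), grouped down the page by level of the pathway, with the 95% interval of the edgeR fit as a bar. Changes run from -0.58 for AKT1S1 to 1.44 for PIK3CD, and most lie close to 0.

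Levels within the pathway spanned a wide range on the per-length scale. EIF4EBP1, at 156 ± 3.74 FPKM in mutant libraries and 80.9 ± 4.96 FPKM in wild-type libraries (SD, n = 3 each), had the highest deposited FPKM of the list, and IRS4 and EIF4EBP2 came next in both groups. That order rests on the deposited gene lengths, which are 4.23 times the GENCODE release 29 length for IRS4 and 0.82 times for EIF4EBP1. With the latter lengths IRS4 would stand above EIF4EBP1 in every library. PIK3R2, the p85-beta regulatory subunit of PI3K, was the lowest, at 0.30, 0.40 and 0.36 FPKM in mutant libraries and 0.38, 0.40 and 0.32 FPKM in wild-type libraries. It alone stayed under the expression minimum. The fit without a minimum gave it a fold of 0.926 (95% interval 0.645 to 1.33, adjusted p = 0.800). In GENCODE release 29, 87.2% of its exonic bases are shared with another gene model on the same strand. Its level may therefore be an undercount, depending on how shared reads were handled. Among the called genes, such same-strand sharing covers 22.9% of exonic bases for RRAGC, 17.4% for PIK3R3 and 11.9% for FLCN. Its part in the changes of these genes was not tested.

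**Figure D2:**
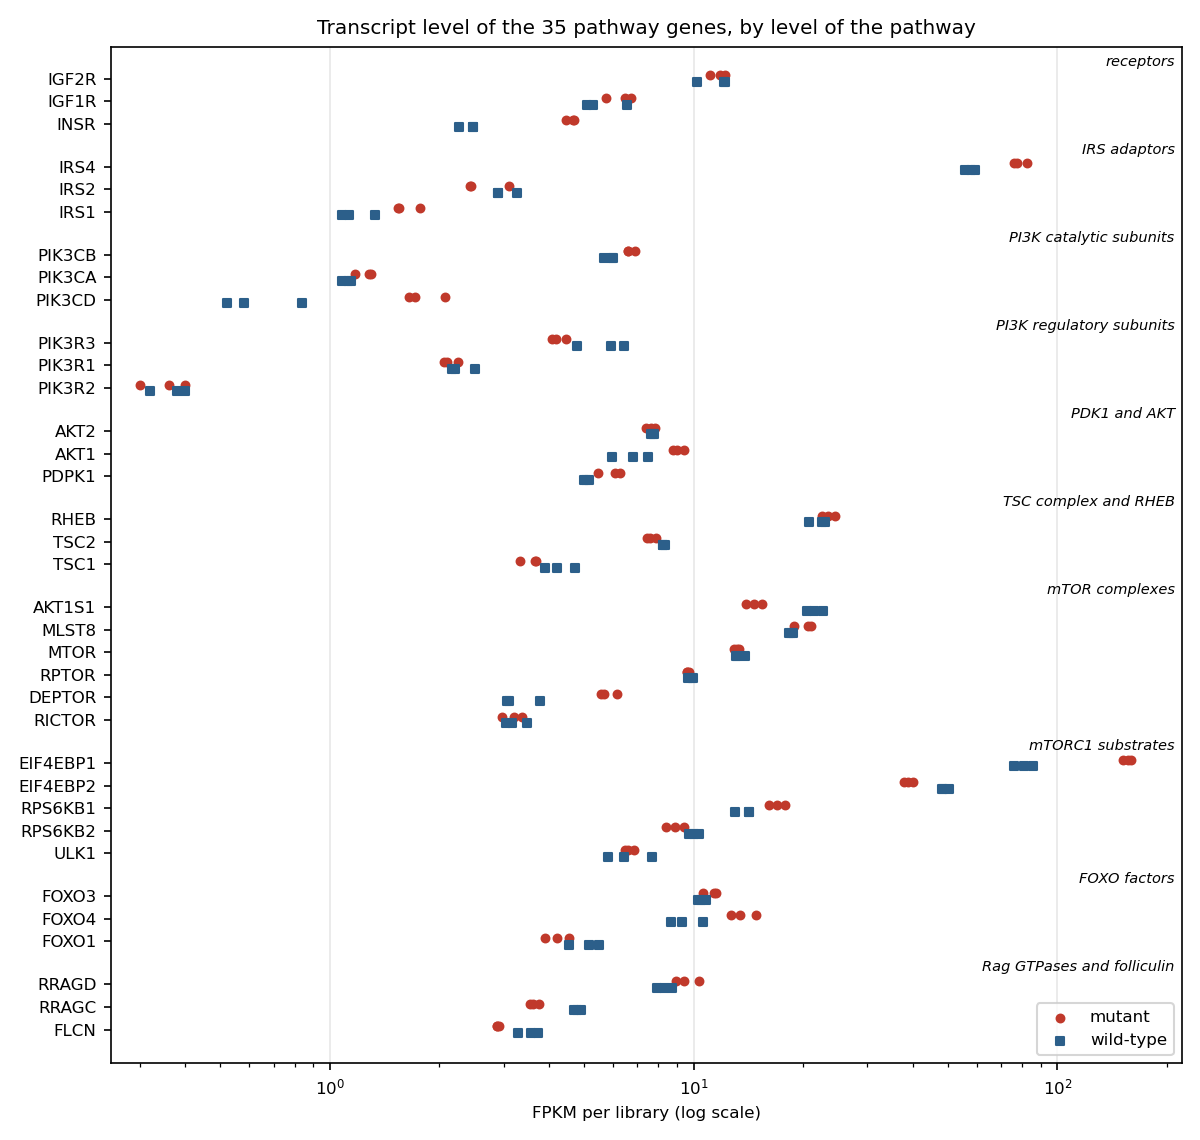
FPKM of each of the 35 genes in each library (x axis, log scale), grouped down the page by level of the pathway, with mutant and wild-type libraries in separate colours. Levels run from under 1 FPKM for PIK3R2 to 158.93 FPKM for EIF4EBP1 in a mutant library.

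At the receptors, the insulin receptor transcript rose and the IGF receptor transcripts did not pass the test. INSR (ENSG00000171105, GRCh38 chromosome 19, 7112255 to 7294414, minus strand) had 4.66, 4.45 and 4.68 FPKM in mutant libraries and 2.48, 2.26 and 2.47 FPKM in wild-type libraries. The groups were far apart, and the fold was 1.87 (95% interval 1.70 to 2.06, adjusted p = 3.45e-09). INSR ranked above 93.7% of tested genes in the size of its change. IGF1R, the closest relative of INSR and a receptor for both IGFs, had 6.71, 5.73 and 6.46 FPKM in mutant libraries and 6.55, 5.30 and 5.08 FPKM in wild-type libraries. Its groups overlapped and the fold was 1.09 (0.976 to 1.22, adjusted p = 0.169). Without wild-type replicate 1 its log2 change was 0.25 with an adjusted p of 0.00223, so that a single library decides this call. IGF2R, which carries IGF2 to the lysosome for breakdown and does not signal as a kinase, was the most abundant receptor transcript of the 3, at 11.7 ± 0.555 FPKM in mutant libraries and 11.5 ± 1.13 FPKM in wild-type libraries (SD, n = 3 each). Its fold was 0.997 (0.916 to 1.08), and its sign turned with the scaling.

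Of the IRS adaptors, which dock PI3K to the receptors, IRS4 and IRS1 rose. IRS4 (chromosome X, 108719946 to 108736563, minus strand) had 77.22, 76.16 and 82.34 FPKM in mutant libraries and 57.86, 59.27 and 55.61 FPKM in wild-type libraries. The groups were apart, with every mutant value the higher, and the fold was 1.33 (1.26 to 1.42, adjusted p = 1.56e-07). IRS1 had 1.77, 1.55 and 1.54 FPKM in mutant libraries and 1.33, 1.13 and 1.08 FPKM in wild-type libraries, a fold of 1.34 (1.15 to 1.58, adjusted p = 0.00269). The folds of the pair were close, although IRS4 was the far more abundant transcript. IRS2, an adaptor prominent in liver, had 3.10, 2.42 and 2.44 FPKM in mutant libraries and 2.89, 2.90 and 3.26 FPKM in wild-type libraries. It missed the threshold (fold 0.864, adjusted p = 0.0734), and without mutant replicate 1, its highest mutant library, its log2 change was -0.34 with an adjusted p of 0.00756.

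IRS4 carried most of the IRS signal in both groups. Its share of the summed IRS1, IRS2 and IRS4 FPKM was 94.1%, 95.05% and 95.4% in mutant libraries and 93.2%, 93.6% and 92.8% in wild-type libraries. The mutant shares were all higher, by 1.64 percentage points on average (two-sided exact permutation p = 0.1, the smallest that 3 against 3 libraries allow; 0.125 after Benjamini-Hochberg adjustment over 5 shares). The deposited length of IRS4 is 16618 bases, far above its length in GENCODE release 29. With the deposited counts divided by the latter, the shares averaged 98.7% in mutant libraries and 98.3% in wild-type libraries. The difference shrank to 0.42 points. Any reads outside the shorter model stay in those counts and would raise the IRS4 share.

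Of the 3 PI3K catalytic genes 2 rose, and of the 2 tested regulatory genes 1 fell. PIK3CD, the p110-delta subunit best known from white blood cells, showed the largest change among the tested genes of the 35. PIK3CD (chromosome 1, 9629889 to 9729114, plus strand) had 1.71, 1.65 and 2.07 FPKM in mutant libraries and 0.84, 0.52 and 0.58 FPKM in wild-type libraries. The groups did not overlap, and the fold was 2.72 (2.18 to 3.38, adjusted p = 2.74e-07). Its mean passed the expression minimum only through the mutant group, and its call also held in the fit without a minimum (log2 change 1.41). With limma on log2(FPKM + 1), where the pseudocount is as large as the level itself, the log2 change was 0.77. Beside it, the T-cell marker CD3E was at 0, and the part of the small difference in the blood list was not tested.

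PIK3CB, the widely expressed p110-beta subunit, had 6.88, 6.60 and 6.61 FPKM in mutant libraries and 5.67, 6.01 and 5.96 FPKM in wild-type libraries. It was the most abundant of the 3 catalytic transcripts, and its fold of 1.11 (1.02 to 1.21) had an adjusted p of 0.0298. That call was lost with DESeq2 (0.0591), without an expression minimum (0.219) and in the fits without mutant replicate 1 (0.103), 2 (0.0542) or 3 (0.0583) or without wild-type replicate 1 (0.0786) or 3 (0.0533). PIK3CA, the p110-alpha subunit often mutated in cancer, had 1.30, 1.28 and 1.17 FPKM in mutant libraries and 1.12, 1.14 and 1.08 FPKM in wild-type libraries. Its values did not overlap, yet the count test did not call it (fold 1.10, 0.969 to 1.24, adjusted p = 0.189). In GENCODE release 29, 35.8% of PIK3CA exonic bases lie over KCNMB3 on the opposite strand.

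Among the regulatory subunits, which hold the catalytic subunit in check and bind phosphorylated IRS, PIK3R3 fell. It had 4.45, 4.18 and 4.08 FPKM in mutant libraries and 4.79, 6.42 and 5.93 FPKM in wild-type libraries, a fold of 0.726 (0.637 to 0.828, adjusted p = 2.67e-04). The wild-type libraries were the more scattered group, and the lowest of them still lay above all mutant values. PIK3R1, which encodes p85-alpha, had 2.14 ± 0.10 FPKM in mutant libraries and 2.30 ± 0.186 FPKM in wild-type libraries (SD, n = 3 each; fold 0.909, 0.817 to 1.01, adjusted p = 0.120). Without wild-type replicate 1 the adjusted p was 0.04996, with a log2 change of -0.18. The share of PIK3R1 in the summed PIK3R1, PIK3R2 and PIK3R3 FPKM was 32.1%, 31.0% and 32.1% in mutant libraries and 29.6%, 26.9% and 26.1% in wild-type libraries. The groups did not overlap, and PIK3R3 was the larger part in each library.

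PDPK1 and AKT1, the kinases that follow PI3K, rose by small amounts. AKT1 (chromosome 14, 104769349 to 104795751, minus strand) had 9.41, 8.99 and 8.76 FPKM in mutant libraries and 7.51, 5.97 and 6.80 FPKM in wild-type libraries, a fold of 1.31 (1.19 to 1.44, adjusted p = 4.87e-05). AKT2, the isoform most tied to glucose uptake, had 7.65, 7.38 and 7.84 FPKM in mutant libraries and 7.64, 7.73 and 7.76 FPKM in wild-type libraries. Those values overlapped, and the interval of its fold, 0.907 to 1.03, holds only small changes. PDPK1, which encodes the kinase PDK1, had 6.26, 5.47 and 6.06 FPKM in mutant libraries and 4.98, 5.16 and 5.07 FPKM in wild-type libraries (fold 1.14, adjusted p = 0.00965). Its call was lost without mutant replicate 1 (0.0675) and without an expression minimum (0.0513).

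Both TSC genes, whose products form the brake on RHEB, fell. TSC1 had 3.69, 3.33 and 3.67 FPKM in mutant libraries and 3.91, 4.73 and 4.21 FPKM in wild-type libraries, a fold of 0.814 (0.738 to 0.898, adjusted p = 0.00106). TSC2, the partner that acts on RHEB, had 7.90, 7.42 and 7.59 FPKM in mutant libraries and 8.34, 8.21 and 8.23 FPKM in wild-type libraries. Neither gene's groups overlapped, and the fold of TSC2 was 0.904 (0.850 to 0.961, adjusted p = 0.00627). The TSC2 call was lost with limma on log2(FPKM + 1) (0.0723) and on log2(FPKM + 0.1) (0.0698). RHEB itself had 23.5 ± 1.01 FPKM in mutant libraries and 22.1 ± 1.15 FPKM in wild-type libraries (SD, n = 3 each; fold 1.04, adjusted p = 0.401).

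Within the mTOR complexes, the catalytic core did not pass the test while both of its inhibitor genes did, in opposite directions. DEPTOR (chromosome 8, 119873717 to 120050918, plus strand), whose product binds and inhibits mTOR in both complexes, had 5.57, 5.65 and 6.16 FPKM in mutant libraries and 3.78, 3.11 and 3.07 FPKM in wild-type libraries. The fold was 1.70 (1.44 to 2.01, adjusted p = 1.69e-05). AKT1S1 (chromosome 19, 49869033 to 49878459, minus strand) had 15.44, 14.64 and 13.93 FPKM in mutant libraries and 20.48, 21.36 and 22.69 FPKM in wild-type libraries. Its groups were well apart, with a fold of 0.668 (0.619 to 0.720, adjusted p = 4.33e-08). PRAS40, its product, inhibits mTORC1 until AKT phosphorylates it.

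MTOR, the kinase shared by both complexes, had 13.1 ± 0.200 FPKM in mutant libraries and 13.4 ± 0.429 FPKM in wild-type libraries (SD, n = 3 each), a fold of 0.961 (0.905 to 1.02, adjusted p = 0.245). RPTOR, the mTORC1 scaffold, and RICTOR, its counterpart in mTORC2, had folds of 0.960 (0.898 to 1.02) and 0.965 (0.871 to 1.07). All 3 intervals held a fold of 1. MLST8, a subunit of both complexes, had 21.07, 20.63 and 18.83 FPKM in mutant libraries and 18.30, 18.47 and 18.71 FPKM in wild-type libraries. Its values did not overlap and its adjusted p was 0.130. It passed with upper-quartile scaling (0.0301), with library totals as the scaling (0.0452), among genes of at least 5 FPKM (0.0224) and without mutant replicate 3 (0.0478).

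**Figure D3:**
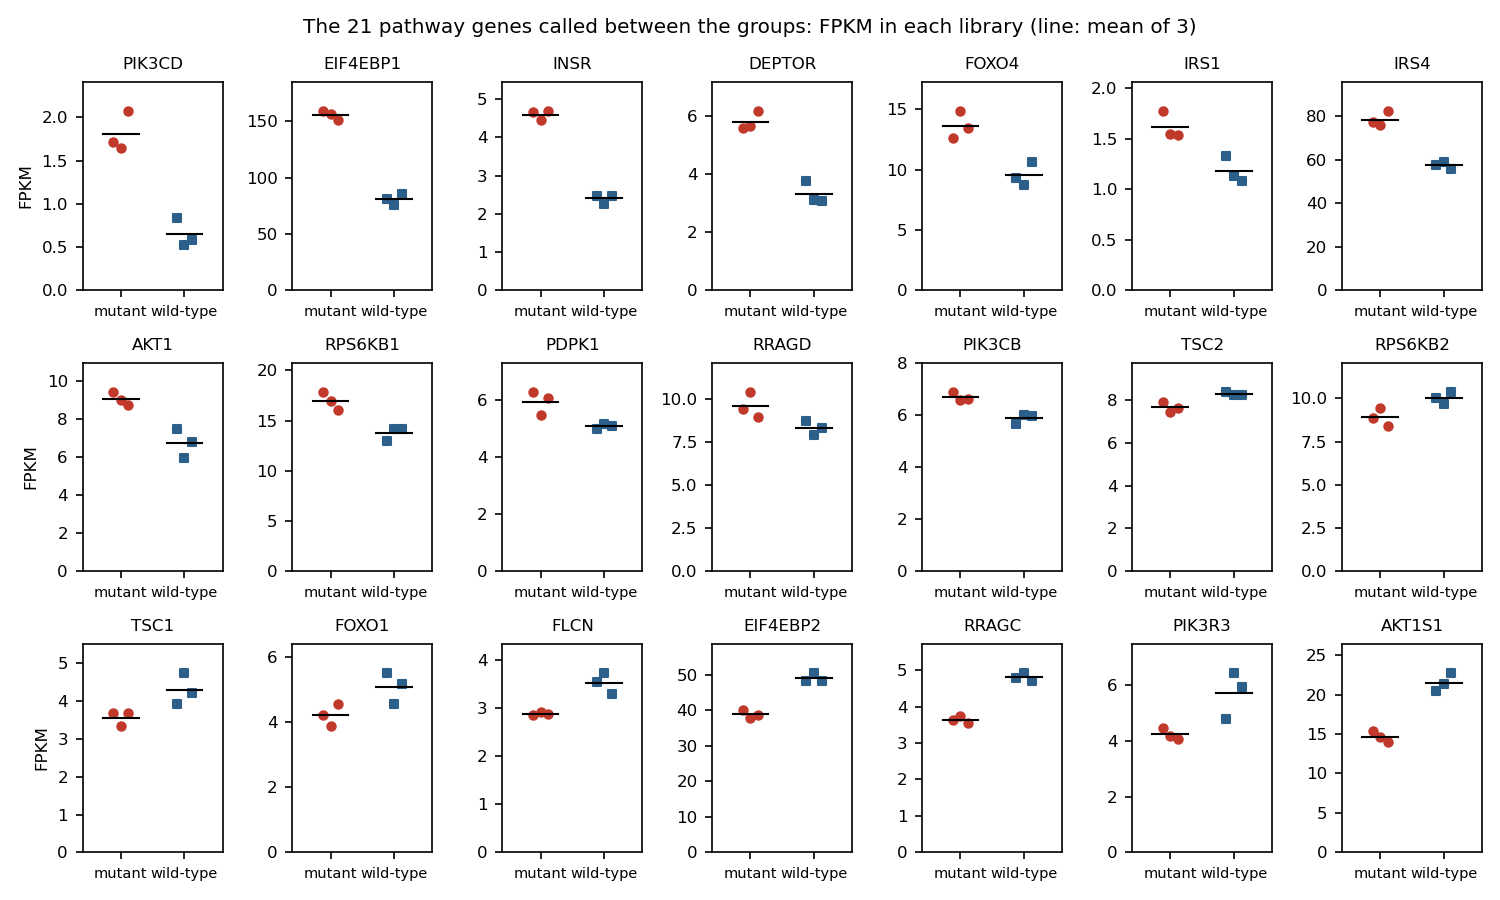
FPKM in each library (y axis, from 0) for the 21 called genes, 1 panel a gene, with mutant libraries left of wild-type libraries and a line at the mean of 3. INSR, PIK3CD, DEPTOR and EIF4EBP1 show the widest upward gaps and AKT1S1 the widest downward gap.

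Among the substrates of mTORC1 the members of each gene pair went opposite ways. EIF4EBP1 (chromosome 8, 38030534 to 38060365, plus strand), whose product blocks cap-dependent translation until mTORC1 phosphorylates it, had 158.93, 156.75 and 151.65 FPKM in mutant libraries and 80.89, 75.99 and 85.91 FPKM in wild-type libraries. The fold was 1.88 (1.75 to 2.02, adjusted p = 1.09e-10). EIF4EBP2, its relative, had 40.10, 37.87 and 38.76 FPKM in mutant libraries and 48.33, 50.35 and 48.13 FPKM in wild-type libraries, a fold of 0.777 (0.734 to 0.824, adjusted p = 5.07e-07). EIF4EBP1 supplied 79.9%, 80.5% and 79.6% of their summed FPKM in mutant libraries and 62.6%, 60.1% and 64.1% in wild-type libraries. The groups were 17.7 percentage points apart, and the exact permutation test again gave 0.1, its smallest value.

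RPS6KB1, the S6 kinase that drives ribosomal protein S6 phosphorylation, had 17.82, 16.93 and 16.06 FPKM in mutant libraries and 12.95, 14.19 and 14.22 FPKM in wild-type libraries (fold 1.20, 1.11 to 1.30, adjusted p = 2.68e-04). RPS6KB2, the other S6 kinase gene, had 8.86, 9.43 and 8.39 FPKM in mutant libraries and 10.01, 9.68 and 10.34 FPKM in wild-type libraries (fold 0.869, 0.796 to 0.949, adjusted p = 0.00782). The groups overlapped for neither kinase. The RPS6KB2 call was lost without mutant replicate 3 (adjusted p = 0.0551). ULK1, the kinase that starts autophagy and is held back by mTORC1, averaged 6.64 ± 0.201 FPKM in mutant libraries and 6.64 ± 0.959 FPKM in wild-type libraries (SD, n = 3 each). Its fold was 0.976 (0.869 to 1.10), and its sign turned with the scaling.

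The FOXO transcription factor genes, whose products AKT excludes from the nucleus, split 3 ways. FOXO4 had 12.64, 14.81 and 13.41 FPKM in mutant libraries and 9.28, 8.68 and 10.60 FPKM in wild-type libraries, a fold of 1.40 (1.25 to 1.56, adjusted p = 4.05e-05). FOXO1, the main insulin-controlled FOXO of liver, had 4.22, 3.89 and 4.54 FPKM in mutant libraries and 5.49, 4.55 and 5.17 FPKM in wild-type libraries, a fold of 0.812 (0.718 to 0.917). For FOXO1 the highest mutant and lowest wild-type library lay only 0.01 FPKM apart, and the count test gave an adjusted p of 0.00509. FOXO3, which responds to stress as well as to AKT, had 11.34, 10.63 and 11.55 FPKM in mutant libraries and 10.81, 10.50 and 10.26 FPKM in wild-type libraries. It did not pass the test (fold 1.04, 0.964 to 1.12, adjusted p = 0.376), and the groups overlapped.

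On the amino acid branch, RRAGC and FLCN fell and RRAGD rose. RRAGC, a Rag GTPase that pairs with Rag A or B on the lysosome, had 3.62, 3.75 and 3.54 FPKM in mutant libraries and 4.79, 4.91 and 4.69 FPKM in wild-type libraries (fold 0.741, 0.659 to 0.834, adjusted p = 1.75e-04). RRAGD, its close relative, had 9.42, 10.37 and 8.92 FPKM in mutant libraries and 8.71, 7.92 and 8.28 FPKM in wild-type libraries (fold 1.13, 1.02 to 1.24, adjusted p = 0.0378). The RRAGD rise was the weaker of the pair. Its call was lost with DESeq2 (0.0608), without an expression minimum (0.159) and without mutant replicate 1 (0.0623) or 2 (0.216) or wild-type replicate 2 (0.118) or 3 (0.0831). FLCN, the gene of folliculin, had 2.87, 2.92 and 2.88 FPKM in mutant libraries and 3.56, 3.73 and 3.29 FPKM in wild-type libraries, a fold of 0.801 (0.721 to 0.890, adjusted p = 0.00101). RRAGD made up 72.2%, 73.4% and 71.6% of the summed RRAGC and RRAGD FPKM in mutant libraries and 64.5%, 61.7% and 63.8% in wild-type libraries. That gap of 9.06 percentage points had the smallest p the exact test can give, 0.1.

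**Figure D4:**
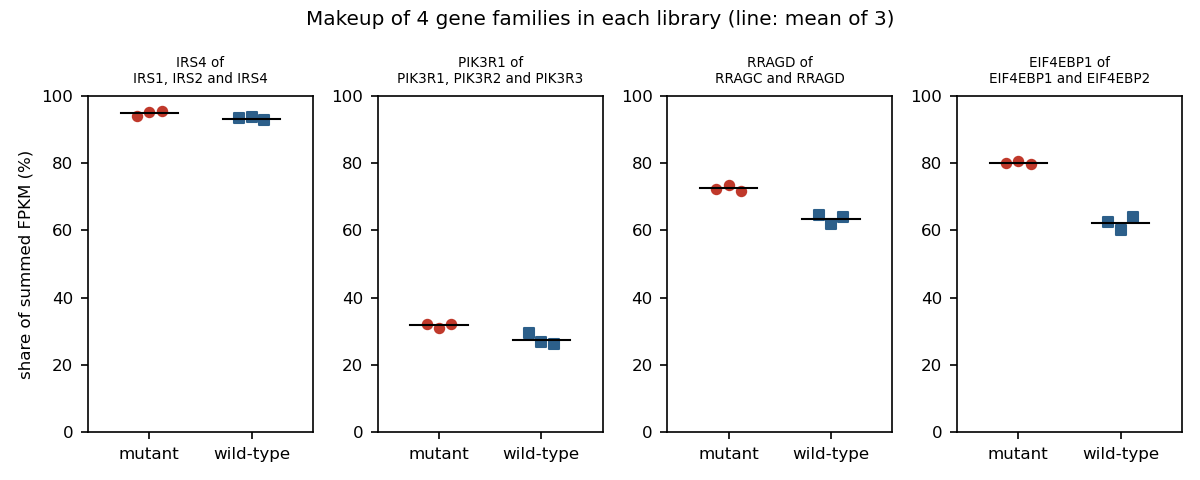
Share of summed FPKM (y axis, 0 to 100%) in each library for IRS4, PIK3R1, RRAGD and EIF4EBP1 within their families, mutant libraries left of wild-type libraries, with a line at the mean of 3. EIF4EBP1 averages 80.0% in mutant libraries and 62.3% in wild-type libraries, the widest gap.

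The letters around the starts of these genes were searched for a few short motifs. The reason was that mTORC1 and the Rag branch control the TFEB and TFE3 factors, which bind the E-box CACGTG. RefSeq promoter windows (GRCh38.p14, 250 bases before to 50 after the start) were found for 30 of the 35 genes. The E-box, read on both strands, lay in the windows of 5 of them, IGF2R, IRS1, IRS4, TSC2 and RRAGC, and in 7.26% of 35116 RefSeq promoter windows. A gene was counted when any of its windows held the motif, and some of the genes have several windows. The percentages here and below are per window, so the counts of genes cannot be set directly against them. All 5 also hold the longer TCACGTG, which contains the E-box and is found in 3.71% of windows. IRS1 and IRS4 rose, TSC2 and RRAGC fell and IGF2R did not pass the test, so the genes with the motif moved in both directions. IRS4 and TSC2 each have another window, at another start, without a whole box. For IRS4 that other start lies further upstream, and the position given below is counted from the downstream start. The sequences around the boxes, shown to let the flanks be compared, run 5′ to 3′ on the strand of the gene with the E-box in capitals.
IGF2R, chr6:159968920-159968985, box at -132 to -127 from the start: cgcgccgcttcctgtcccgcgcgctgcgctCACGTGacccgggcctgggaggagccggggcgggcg
IGF2R, chr6:159968978-159969043, box at -74 to -69: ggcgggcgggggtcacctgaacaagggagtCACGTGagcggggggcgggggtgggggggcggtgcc
IGF2R, chr6:159969042-159969071, box at -28 to -23: ccgggcggctgtCACGTGacgcggttccgg
IRS1, chr2:226799771-226799797, minus strand, box at 36 to 41 after the start: cggaggctccgtCACGTGtttttctcc
IRS4, chrX:108736498-108736527, minus strand, box at -138 to -133: tgaggctgtggtCACGTGttgttttgcccg
TSC2, chr16:2047859-2047888, plus strand, box at -114 to -109: atgcggccccgtCACGTGatgcaaggatcg
RRAGC, chr1:38859849-38859914, minus strand, box at -112 to -107: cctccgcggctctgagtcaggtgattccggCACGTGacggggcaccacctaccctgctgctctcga

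The FOXO-type motif GTAAACA lay in the windows of PIK3CA and FOXO4 and in 3.42% of all windows. The composite ATF4-type motif TGATGNAA lay in those of PIK3R1 and TSC2, where it overlaps the E-box, and in 3.62% of all windows. TGACGTCA, a cAMP response element, lay in the windows of 0 of the 30 genes and in 1.85% of all windows. A match is a description of the letters and not a bound site.

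The position of a gene in the genome moved with its change for part of the list. Genes on chromosome 10 had a median log2 change of -0.36 (492 tested genes, 65.0% called lower), and genes on chromosome 16 had a median of 0.29 (578 tested genes, 62.6% called higher), while chromosomes other than 10, 16, 20 and 22 had medians between -0.05 and 0.06. EIF4EBP2 lies on chromosome 10, and its log2 change of -0.36 matched the chromosome median, with a median of -0.45 for its 20 nearest tested neighbours. PDPK1, on chromosome 16, had a log2 change of 0.19 beside a neighbour median of 0.20. TSC2, on the same chromosome, fell (log2 change -0.15) among neighbours with a median of 0.21, and MLST8 there had a log2 change of 0.09 beside 0.24. MTOR had a log2 change of -0.06 beside a neighbour median of -0.25, and RICTOR one of -0.05 beside 0.22. IRS4, on chromosome X, had a log2 change of 0.42 beside a neighbour median of 0.20. IRS1, on chromosome 2, had one of 0.43 beside -0.12. The neighbours of INSR, PIK3CD, EIF4EBP1 and DEPTOR had medians between -0.07 and 0.03, beside log2 changes of 0.77 to 1.44 in the 4 genes themselves. The part of chromosomal position in these values was not tested.

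**Figure D5:**
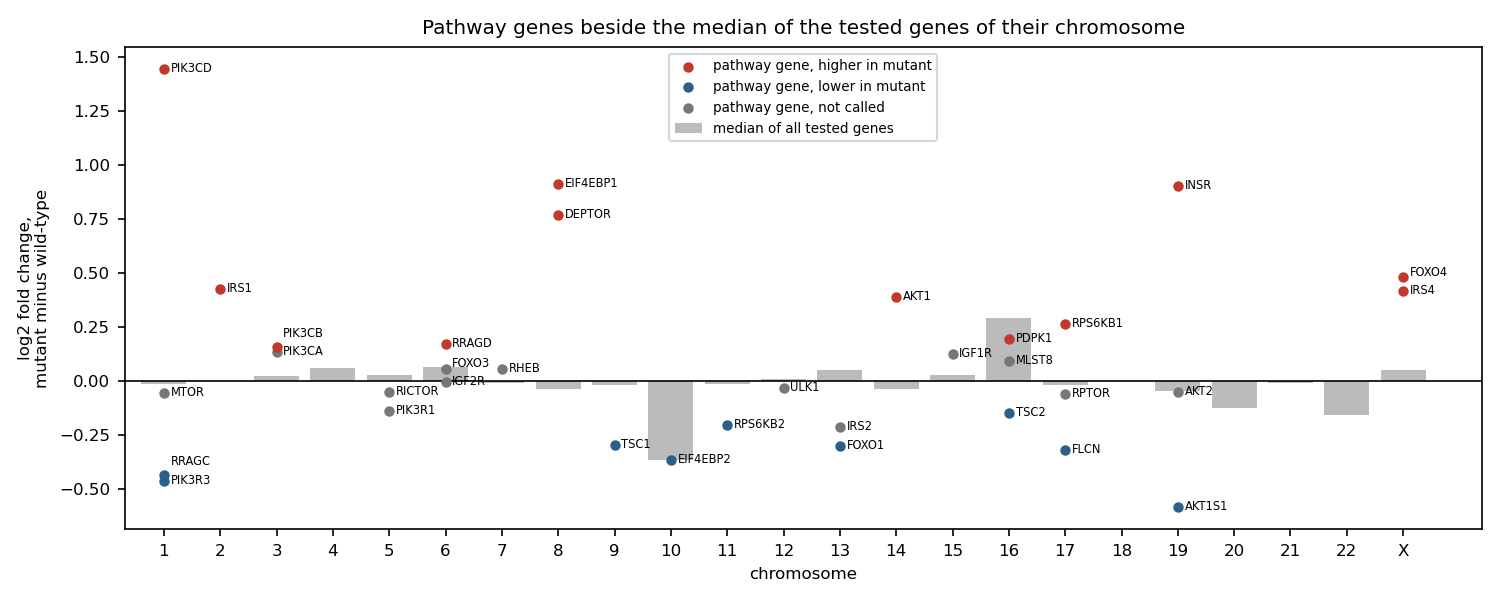
Log2 fold change, mutant minus wild-type (y axis), of each of the signalling genes beside the median of the tested genes on its chromosome (x axis). EIF4EBP2 lies at the low median of chromosome 10, and the chromosome 16 genes TSC2, PDPK1 and MLST8 lie below the raised median of theirs.

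Around the signalling genes, 177 further genes of the pathway were grouped into 9 lists. Of the 144 that were tested, 49 rose, 40 fell and 55 did not pass, and the 61.8% called stand beside the 58.0% of all genes given above. Their median log2 change was 0.02. Within single lists the share of tested genes called ran from 42.9% to 78.6%. Of the 15 genes listed as ligands and binding proteins, 6 were tested, of which 4 (66.7%) rose and 0 fell. IGFBP5, a secreted IGF-binding protein, rose to 2.60 ± 0.0551 FPKM in mutant libraries, against 0.990 ± 0.251 FPKM in wild-type libraries (SD, n = 3 each; log2 change 1.36, adjusted p = 1.97e-07), and it passed the minimum only through the mutant group. IGFBP2 rose by 0.31 on the log2 scale. IGF2BP2 and IGF2BP3, on the same list, encode proteins that bind IGF2 mRNA and not the IGF2 protein. They rose by 0.34 and 0.22. INS, the insulin gene, and IGFBP1 were listed at 0. IGF2, named after its values were seen and overlapped by other gene models, stayed under the minimum at 1.27, 1.21 and 1.11 FPKM in mutant libraries and 0.42, 0.27 and 0.26 FPKM in wild-type libraries.

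Of 16 receptor adaptors and brakes, 8 rose and 2 fell, with a median of 0.26. The share called was 62.5%, beside 58.0% of all tested genes. The docking protein GAB2, which passed the minimum only through the mutant group, rose by 1.22 on the log2 scale (adjusted p = 8.59e-07), the insulin receptor inhibitor GRB10 by 0.41 and the SHP2 phosphatase gene PTPN11 by 0.31, while PTPN1, the phosphatase that switches the insulin receptor off, fell by 0.32. Of 12 tested genes of other PI3K enzymes and lipid phosphatases, 3 rose and 4 fell (58.3% called). PIK3C2B rose by 0.76, INPPL1 (SHIP2) rose by 0.32 and INPP5E fell by 0.44 on the log2 scale.

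Among 14 tested relatives and brakes of AKT, 3 rose and 3 fell (42.9% called, beside 58.0% of all tested genes). The pseudokinase genes TRIB2 and TRIB1 rose by 1.01 and 0.87 on the log2 scale, while PPP2R2A, a phosphatase subunit that acts on AKT, fell by 0.33. Of 27 tested genes of amino acid sensing, 5 rose and 8 fell (48.1% called). SESN2, a leucine-binding inhibitor of mTORC1, rose to 39.1 ± 1.79 FPKM in mutant libraries, against 22.4 ± 0.868 FPKM in wild-type libraries (SD, n = 3 each; log2 change 0.77, adjusted p = 1.03e-09). WDR59 of the GATOR2 complex and NPRL3 of GATOR1, both on chromosome 16, rose by 0.81 and 0.65, while SEH1L, another GATOR2 gene, fell by 0.42. Of 17 tested genes of other mTOR complex subunits and upstream brakes, 6 rose and 5 fell (64.7% called). DDIT4 (REDD1), a stress-induced activator of the TSC brake, rose by 2.50 on the log2 scale (adjusted p = 2.45e-12), although it lies on chromosome 10. Its paralog DDIT4L, which passed the minimum only through the wild-type group, fell by 1.30, the mTORC2 subunit gene PRR5 by 0.63 and the AMPK subunit gene PRKAB1 by 0.43.

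Downstream of AKT and mTORC1, 23 effectors were tested, of which 9 rose and 7 fell (69.6% called, beside 58.0% of all tested genes). EEF2K, the kinase that slows translation elongation and is inhibited by S6 kinase, rose to 14.8 ± 0.381 FPKM in mutant libraries, against 6.38 ± 0.363 FPKM in wild-type libraries (SD, n = 3 each; log2 change 1.18, adjusted p = 6.67e-12); it lies on chromosome 16. EIF4B, which aids unwinding of mRNA, and TBC1D1, an AKT substrate of glucose transport, rose by 0.45 and 0.52, while the initiation scaffold EIF4G1 fell by 0.45. Of 14 tested FOXO target genes, 6 rose and 5 fell (78.6% called). RBL2 and MXI1 rose by 0.88 and 0.32, and TXNIP and CITED2 fell by 0.71 and 0.56. The chromosome is given for only some genes of the 9 lists, and its part in their changes was not tested. Among those named above, PTPN1 lies on chromosome 20 (median log2 change -0.13) and PRR5 on chromosome 22 (median -0.16). Of 15 tested TFEB target genes of the lysosome and autophagy, 5 rose and 6 fell (73.3% called). SQSTM1, the autophagy receptor p62, fell to 7.88 ± 0.327 FPKM in mutant libraries, against 13.1 ± 1.17 FPKM in wild-type libraries (SD, n = 3 each; log2 change -0.76, adjusted p = 1.04e-08). The lysosomal enzyme genes NEU1 and CTSA fell by 0.75 and 0.69, and WIPI1, an autophagosome protein gene that passed the minimum only through the mutant group, rose by 1.53.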

How the data were processed

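The authors deposited 1 table with a count column and an FPKM column for each of 6 libraries (HEK293 cells, 3 mutant and 3 wild-type). Per the labels' protocols, poly(A) RNA was isolated and sequenced as paired ends. Per the submitters' processing notes, the tools were cutadapt, HISAT2 2.0.1 and HTSeq on GRCh38; for the annotation release, strand setting and shared reads, nothing is given in the sources used here. FPKM in the table, as the authors deposited them, equal the counts scaled to exonic length and library total, within 0.011 for 100% of values, and served for levels, shares, the expression minimum and the limma alternatives.

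The deposited counts were scaled by TMM (factors 0.980 to 1.017) and tested with the two-sided quasi-likelihood F-test of edgeR 4.0.16 in R 4.3.3, with genotype as the only factor. Genes with a mean of at least 1 FPKM over the 6 libraries entered (12550). Benjamini-Hochberg adjustment ran over all of them, with 0.05 as the threshold for a call. Folds are mutant over wild-type, with 95% intervals from the fit. PIK3R2 and ADORA1 were taken from the fit without a minimum. Tests were checked on simulated data. Shares within families were compared by exact permutation tests. Gene model overlaps and lengths came from GENCODE release 29, whose use for shares was chosen after seeing the data.

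The genes and lists were chosen with earlier results of these data known. All 35 genes are named; in each of the 9 lists, up to 4 tested genes with the smallest adjusted p are named, and ADORA1; some computed results, among them 1 of 5 family shares, whose groups overlapped, are not reported here. Alternatives were other scalings, DESeq2 1.42.0, limma 3.58.1 on log2(FPKM + 1) and log2(FPKM + 0.1), other minimums, leaving out single libraries, and a replicate block.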

Additional observations from a re-analysis of the deposited data

How the results depend on the processing

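Of the 21 called signalling genes, 16 kept call and direction in every alternative that tested them, and PIK3CB, RRAGD, PDPK1, TSC2 and RPS6KB2 lost it in at least 1. The count stayed between 9 and 13 rises and between 8 and 10 falls, except among genes of at least 5 FPKM, where fewer genes were tested: 4 of the signalling genes fell, 24 of the wider lists fell and 4597 of all genes were called. The median of the tested signalling genes was 0.0656 with upper-quartile scaling, 0.0582 with limma on log2(FPKM + 0.1), -0.0423 with no minimum and 0.10 among genes of at least 5 FPKM; the cause was not tested. IGF2R, near 0, was 0.0365 with upper-quartile scaling, 0.0283 with library totals, 0.0287 and 0.0312 in the limma fits with pseudocounts of 1 and 0.1, 0.0420 among genes of at least 5 FPKM, and -0.0875 to 0.0397 with a library left out. ULK1 was 0.00630 with upper-quartile scaling, 0.00647 and 0.00839 in those limma fits, 0.0118 at the higher minimum, and -0.125 to 0.0824 with a library left out. RICTOR was -0.0977 to 0.0108 with a library left out. The IRS4 share difference was 0.848 points on counts and 0.425 points with GENCODE lengths, and that of EIF4EBP1 15.7 and 19.3 points; gene length enters these by construction. Same-numbered libraries showed no shared deviation (correlations of 0.00385, -0.0435 and -0.0128, beside -0.0335 to 0.0444 for differently numbered libraries). Such values cannot decide whether the libraries were prepared in pairs. The replicate block left 12 rises and 9 falls among the signalling genes and called 7069 of all genes. Depth limits PIK3R2, with as few as 29 counts, and PIK3CD, with as few as 84. Intervals cover these libraries only.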

Other observations

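Summed over each level of the pathway, FPKM differed most between the groups where 1 abundant gene carried the difference. The 5 mTORC1 substrate genes summed to 232.18, 227.56 and 221.72 FPKM in mutant libraries and 159.87, 156.63 and 164.41 FPKM in wild-type libraries, a gap carried by EIF4EBP1. The IRS adaptors summed to 82.09, 80.13 and 86.32 FPKM in mutant libraries and 62.08, 63.3 and 59.95 FPKM in wild-type libraries, a gap carried by IRS4. The 6 genes of the mTOR complexes summed to 68.35, 66.54 and 64.87 FPKM in mutant libraries and 69.51, 69.35 and 70.3 FPKM in wild-type libraries. These sums are descriptions with no test, and they weight each gene by its level.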
